A study of Mus musculus with 18 samples.

Results

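Culture sets 3 and 6 of mouse cortical neuronal cultures carried higher levels of interferon-stimulated transcripts than the other sets, and they are described here gene by gene against those sets. Libraries were labelled with a construct and a replicate number from 1 to 6, and the 3 libraries of 1 number were taken as 1 culture set. The 6 libraries numbered 3 or 6 were set against the 12 libraries numbered 1, 2, 4 or 5, so 6 of 18 libraries, or 2 of 6 sets, make up the interferon-high class. These sets were chosen because interferon-stimulated transcripts were high in them. Differences between the classes are therefore given as descriptions with no test, the interferon-stimulated genes most of all. The 3 libraries of a set are not independent cultures of the class, and 2 sets against 4 allow only 15 arrangements, so the smallest p-value an exact test could reach is 0.0667. The labels do not say what a replicate number stands for.

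The study compared neurons overexpressing mSc, a mScarlet fluorescent protein control, with neurons overexpressing Psmb5 or Psmb8. Psmb5 encodes a catalytic subunit of the standard proteasome, and Psmb8 encodes the subunit that takes its place in the immunoproteasome. Lentivirus was added to all cultures on day 7 in vitro, and RNA was taken 10 days after that, so no group is free of virus, and each set holds 1 library of each construct. Neither the age, the strain, the number of animals behind a culture nor the promoter of the construct is given in the sources used here. A treatment text shared by all samples names an Ifng construct, whereas the treatment field of each sample and the series text name mSc, Psmb5 or Psmb8. Ifng, the transcript of interferon gamma, had 11 counts over all 18 libraries, 6 in sets 3 and 6 and 5 in the others, with at most 3 counts in a library.

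Interferons are secreted proteins that bind receptors on the cell surface and activate Janus kinases, which phosphorylate STAT transcription factors. Type I interferons act mainly at interferon-stimulated response elements, and interferon gamma acts mainly at gamma-activated sites. Induced genes encode GTPases that attack intracellular pathogens, antiviral enzymes, immunoproteasome subunits and the MHC class I machinery that shows peptides to T cells. Neurons express little MHC class I at rest and raise it when exposed to interferon.

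Library totals ran from 16055974 to 19666624 counts in sets 3 and 6 and from 15337511 to 21074229 in the others, so depth overlapped between the classes. Psmb5 and Psmb8 were at their highest in the groups named for them in every set. Mitochondrial transcripts made up 2.52 to 2.94% of counts in sets 3 and 6 and 2.64 to 4.12% in the others, with set 4 at 2.64 to 3.07%, and the part of this share in the results was not tested. Set 1 stood apart by astrocyte markers and the Psmb8 library of set 4 by proteasome and oxidative stress transcripts, and values without set 1 or set 4 are given where a result rests on them. Pan-neuronal transcripts were present in every library, with a summed level of 4291 to 4372 CPM (counts scaled to library size) in sets 3 and 6 and 3930 to 4738 CPM in the others. Astrocyte and oligodendrocyte lineage transcripts were present too, as described further on.

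A gene was called separated where, in each of the 3 construct groups, both libraries of sets 3 and 6 lay above (or below) all 4 other libraries and the difference was at least 0.5 on the log2 scale. The difference is the mean log2 CPM of sets 3 and 6 minus that of the other sets, averaged with equal weight for each construct, and its standard error (SE) was taken over the 6 sets. Of 15671 genes, 247 (1.58%) were separated upward and 411 (2.62%) downward. Without set 4 these counts were 387 and 692, and without set 3 the downward count was 669. These shares are the background for the counts of gene lists below, and since the sets were chosen on transcripts from the same contrast, nothing is read from comparing them. Without the minimum size, 678 genes lay wholly above and 663 wholly below. The median difference over all genes was 0.01, and differences at the 5th and 95th percentile were -0.63 and 0.45. At a minimum of 1 on the log2 scale, 122 genes were separated upward and 169 downward.

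The 3 genes that mark the class are an antimicrobial GTPase of the guanylate-binding protein family (Gbp2, ENSMUSG00000028270, chr3:142620602-142638008), an immunoproteasome subunit (Psmb9, ENSMUSG00000096727, chr17:34181987-34187764) and an immunity-related GTPase (Iigp1, ENSMUSG00000054072, chr18:60376027-60392634), with coordinates from GENCODE M21 on GRCm38. Gbp2 was at 50.4, 22.96 and 23.5 CPM in the mSc, Psmb5 and Psmb8 libraries of set 3 and at 182, 136 and 94.5 CPM in those of set 6. In the 12 other libraries it lay between 1.44 and 5.94 CPM, with a median of 3.12. The classes did not overlap, and within both high sets the mSc library was the highest. Psmb9 ran from 4.16 to 16.7 CPM (median 8.97) in sets 3 and 6 and from 0.58 to 1.91 CPM (median 1.20) in the others, a difference of 2.86 (SE 0.70). Iigp1 ran from 17.1 to 116.9 CPM (median 59.5) against 0.05 to 7.24 CPM (median 0.66), a difference of 6.06 (SE 1.64). Gbp2 differed by 4.36 (SE 1.11).

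**Figure D1:**
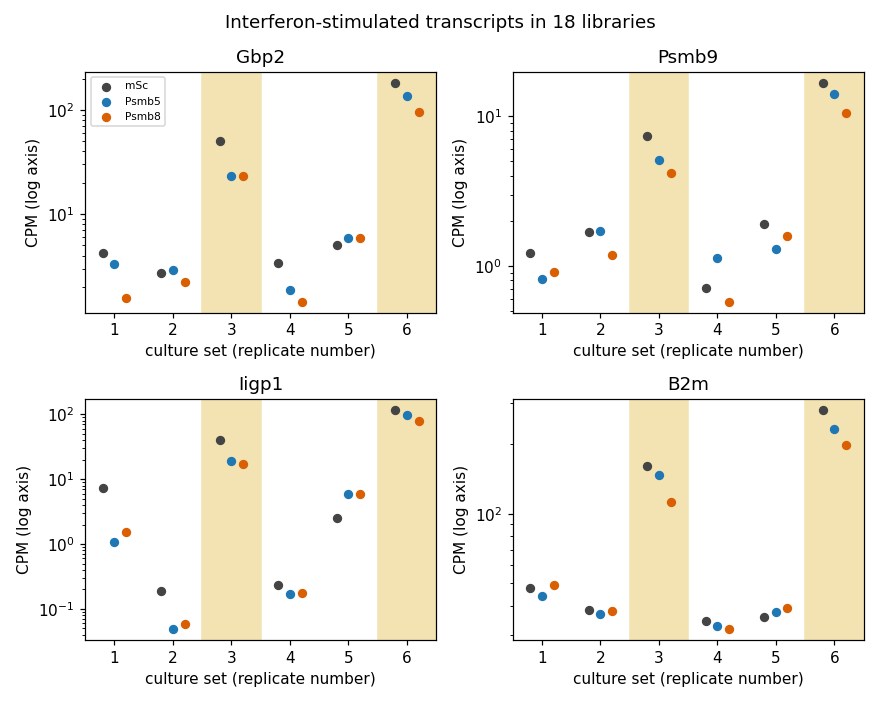
CPM of Gbp2, Psmb9, Iigp1 and B2m (vertical log axes) in the 18 libraries by culture set (horizontal axis), with 1 point per library coloured by construct and sets 3 and 6 shaded. Every library of sets 3 and 6 lies above all others, set 6 lies above set 3, and Iigp1 spreads from 0.05 to 7.24 CPM among the other sets.

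The promoters of these GTPases are shown because the motifs read by interferon-activated factors can be seen in them. The 2 motifs were searched on both strands in the 250 bases before the RefSeq start of each gene (GRCm38.p6), the interferon-stimulated response element as GAAANNGAAA and the gamma-activated site as TTCNNNGAA. The capitals below mark matches, and each run is written 5′ to 3′ on the strand of the gene. Of the GTPases with the largest differences, Tgtp2, Igtp and Irgm2 carry both motifs 2 bases apart, together TTCNNNGAANNGAAANNGAAA.
Tgtp2 (chr11:49064213-49064362, minus strand): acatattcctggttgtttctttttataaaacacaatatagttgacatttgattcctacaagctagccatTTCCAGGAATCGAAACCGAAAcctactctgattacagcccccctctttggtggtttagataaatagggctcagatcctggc
Igtp (chr11:58199406-58199555, plus strand): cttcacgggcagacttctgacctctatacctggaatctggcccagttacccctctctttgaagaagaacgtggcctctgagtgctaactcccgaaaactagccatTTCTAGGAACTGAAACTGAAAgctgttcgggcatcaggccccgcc
Irgm2 (chr11:58214827-58214976, plus strand): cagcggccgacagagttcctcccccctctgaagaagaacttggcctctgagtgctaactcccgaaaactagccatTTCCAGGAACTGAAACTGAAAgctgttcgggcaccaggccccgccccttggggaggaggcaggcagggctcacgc
Gbp2, 30 bases around its match (chr3:142620594-142620623, plus strand): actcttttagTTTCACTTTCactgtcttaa
B2m (chr2:122147536-122147685, plus strand): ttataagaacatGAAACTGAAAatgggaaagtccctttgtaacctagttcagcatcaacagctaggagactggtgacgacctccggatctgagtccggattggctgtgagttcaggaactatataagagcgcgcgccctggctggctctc

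The joint motif lay 81 to 61 bases before the start of Tgtp2, 45 to 25 before Igtp and 75 to 55 before Irgm2. Igtp and Irgm2 shared an unbroken run of 38 bases in the printed windows, so these are related promoters and not separate observations. Over all 27025 genes with a promoter entry, 5 (0.0185%) held the joint motif, namely Tgtp1, Tgtp2, Igtp, Irgm2 and Gm12185. All 5 were tested, and their differences ran from 4.005 to 6.47, with Tgtp1 the only one of them not separated. The joint motif has the spacing seen in Tgtp2, Igtp and Irgm2, which were shown for their large differences, and the 5 include related copies. Nothing is therefore read from how rare it is or from the differences of these genes. The response element alone was in 10 of 11 tested guanylate-binding and immunity-related GTPases with an entry and in 3.46% of all genes. The gamma-activated site was in 6 of those 11 and in 8.13% of all genes. In Gbp2 the response element is on the opposite strand, 59 to 50 bases before the RefSeq start, and the GENCODE annotation places it within exon 1 of a longer transcript. No match to either motif was found in the 250 bases before the RefSeq start of Psmb9. That window (chr17:34187331-34187580) lies inside the GENCODE gene, so the bases before the GENCODE start were not searched. B2m, shown for a result given below, holds a response element 139 to 130 bases before its start. A match is a run of letters and not a bound site.

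No interferon ligand had enough counts for testing. Of 11 listed, Ifnb1 had 3 counts over 18 libraries, and Ifna1, Ifna4, Ifna5 and Ifnl2 had 0. The receptors and kinases that receive the signal were detected at like levels in both classes. Ifngr1, which binds interferon gamma, ran from 11.5 to 13.8 CPM in sets 3 and 6 and from 11.9 to 15.3 CPM in the others. Ifnar1, which binds type I interferon, ran from 77.4 to 84.3 CPM and from 70.1 to 78.1 CPM. The kinase Jak2 ran from 59.6 to 69.4 CPM and from 48.4 to 63.0 CPM. The 8 tested members of this list had a median difference of 0.04 and a range of -0.20 to 0.18, and none was separated.

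Among transcription factors and feedback genes, 6 of 13 were separated upward and 0 downward, with a median difference of 0.61. Irf8, a factor best known from myeloid cells, ran from 4.81 to 13.5 CPM in sets 3 and 6 and from 0.49 to 1.92 CPM in the others, a difference of 2.62 (SE 0.61). Irf1, an interferon-induced factor, ran from 13.7 to 41.5 CPM and from 5.75 to 9.23 CPM, a difference of 1.57 (SE 0.54). Usp18, which removes the ubiquitin-like modifier ISG15, differed by 2.25 (SE 0.79). Factors of the type I response differed by less, Stat2 by 0.61 (SE 0.24) and Irf9 by 0.58 (SE 0.19). Without set 6 the differences of Irf1, Usp18 and Stat2 were 1.04, 1.496 and 0.375, the last below the minimum of 0.5. Stat3, the factor downstream of interleukin 6 family cytokines, overlapped between the classes, at 150 to 171 CPM against 100.4 to 195 CPM.

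The guanylate-binding and immunity-related GTPases showed the largest differences of any list. All 18 tested members were above 0, 15 were separated upward, and their median difference was 4.45. Members near the floor in the other sets, such as F830016B08Rik (0 to 0.73 CPM there), could pass the expression filter only through sets 3 and 6. Such members are bound to lie above 0, also in the lists below, as with Ifi44. Gbp4 ran from 11.2 to 104.7 CPM in sets 3 and 6 and from 0 to 4.07 CPM in the others. Tgtp2 ran from 4.87 to 39.2 CPM and from 0 to 2.003 CPM. Their differences, 7.23 and 6.47, and those of F830016B08Rik (6.42) and Gm4951 (6.02), rest on libraries with no or few counts and move with the count added before taking logs. With 2 counts added in place of 0.5 they were 6.199, 5.42, 5.37 and 4.88. Igtp, which was above 0 in every library, ran from 43.3 to 181.6 CPM against 0.998 to 9.15 CPM, a difference of 5.08 (SE 0.98). Irgm1, a regulator of the other immunity-related GTPases, ran from 42.8 to 113.9 CPM against 2.94 to 6.14 CPM. The transcripts of Gbp4, Gbp8 and Gbp9 overlap in the annotation, as do those of Igtp and Irgm2, and Tgtp1 and Tgtp2 are near-identical copies, so reads may be shared among them. Gbp5, Gbp6 and Gbp10 were not analysed here. The 2 gene models without a family name chosen after their values were seen, Gm43302 on chromosome 5 and 9930111J21Rik2 on chromosome 11, had differences of 4.49 (SE 0.88) and 6.38 (SE 1.53).

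The class was not uniform. All 18 of these GTPases were higher in set 6 than in set 3, with a median gap of 1.74 on the log2 scale. Among the sets counted as not high, the mean log2 CPM of the list was -0.08 in set 1 and 0.74 in set 5 but -2.05 in set 2 and -2.06 in set 4. For comparison it was 2.97 in set 3 and 4.75 in set 6. Iigp1 averaged 3.28 and 4.81 CPM in sets 1 and 5 and 0.10 and 0.19 CPM in sets 2 and 4. The sets thus formed a graded order in this list and not 2 tight classes.

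Antiviral effectors best known as type I interferon targets gave 26 of 42 separated upward, 1 downward and a median difference of 1.37, which was 0.91 without set 6. Ifi44 ran from 0.81 to 7.11 CPM in sets 3 and 6 and from 0 to 0.45 CPM in the others, a difference of 4.12 (SE 1.14). Oasl2, a relative of the 2′-5′ oligoadenylate synthetases, ran from 4.72 to 21.98 CPM and from 0.12 to 2.95 CPM, a difference of 3.55 (SE 1.07). Bst2, which tethers budding virions, ran from 6.87 to 22.8 CPM and from 0.61 to 2.54 CPM, a difference of 3.17 (SE 0.61). Trim30a differed by 3.18 (SE 0.84) and Uba7, the activating enzyme for ISG15, by 3.02 (SE 0.52). The list did not move as 1 block. Ifit2, an RNA-binding antiviral protein, ran from 6.92 to 15.9 CPM against 8.48 to 13.2 CPM, and Cmpk2, a mitochondrial nucleotide kinase, differed by 0.03. Ifitm2, a membrane protein that limits viral entry, was lower, at 1.17 to 2.29 CPM against 1.86 to 4.49 CPM. Rsad2, which encodes viperin, overlapped between the classes, at 3.65 to 12.9 CPM against 0.32 to 6.89 CPM. A further 12 of the 54 listed effectors had too few counts to be tested, Mx1 (47 counts over all libraries) and Oas1a (63 counts, 56 of them in sets 3 and 6) among them. Of 10 tested nucleic acid sensors, Ifih1 (difference 1.20, SE 0.38) and Ddx58 (0.75, SE 0.38) were separated upward. Without set 6 the difference of Ddx58 was 0.37, below the minimum of 0.5.

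Of 6 tested immunoproteasome and PA28 activator genes, 2 were separated upward, the inducible catalytic subunits Psmb8 and Psmb9. All 6 were above 0, with a median difference of 0.56. Endogenous Psmb8 can be read only in the mSc and Psmb5 groups. It was at 12.2 and 8.37 CPM in set 3, at 19.4 and 14.6 CPM in set 6, and at 0.49 to 3.10 CPM in the other 8 libraries, a difference of 3.19 (SE 0.60). Psmb10, the remaining inducible subunit, overlapped between the classes, at 18.5 to 29.6 CPM against 15.8 to 21.2 CPM. In the Psmb5 libraries alone it was at 20.1 and 26.7 CPM against 16.1 to 17.6 CPM. The activator subunits Psme1 and Psme2 differed by 0.12 (SE 0.23) and 0.13 (SE 0.09), and Psme2b ran from 1.08 to 2.75 CPM against 0.71 to 1.75 CPM. The 14 genes of the standard 20S core had a median difference of 0.00 and a range of -0.07 to 0.05, and the 18 genes of the 19S particle a median of 0.05 and a range of 0.00 to 0.13. None of these genes was separated, and set 4 was the highest set for both lists (6.07 and 6.45 log2 CPM).

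The MHC class I pathway had 12 of 18 tested genes separated upward, 0 downward and a median difference of 1.10. Nlrc5, the transactivator of MHC class I genes, ran from 23.9 to 53.1 CPM in sets 3 and 6 and from 1.67 to 5.82 CPM in the others, a difference of 3.41 (SE 0.48). The classical heavy chain H2-K1 ran from 100.7 to 292 CPM and from 13.5 to 29.3 CPM, a difference of 2.88 (SE 0.51), and H2-D1 differed by 2.05 (SE 0.33). The nonclassical chains H2-Q4, H2-Q7 and H2-T23 differed by 3.80 (SE 0.56), 3.76 (SE 0.56) and 3.11 (SE 1.14), with reads possibly shared among H2-Q copies, and H2-T23 differed by 2.05 without set 6. B2m, the light chain common to all class I molecules, ran from 112 to 280 CPM against 31.8 to 49.4 CPM, a difference of 2.22 (SE 0.39). The peptide transporter subunit Tap1 ran from 45.4 to 108 CPM against 13.1 to 25.2 CPM. General chaperones of the endoplasmic reticulum on the same list did not share the difference, with Calr at 0.05 (SE 0.06) and Canx at 0.11 (SE 0.09). MHC class II transcripts were low, and none of 5 tested was separated, yet all 5 were above 0, with a median difference of 2.02. H2-Eb1, a class II beta chain, ran from 0.69 to 5.51 CPM in sets 3 and 6 and from 0 to 1.09 CPM in the others, a difference of 2.71 (SE 1.27) that was 1.59 without set 6. Cd74, the invariant chain, ran from 4.71 to 18.7 CPM against 1.18 to 5.88 CPM, and the set 5 mean of 4.51 CPM was near the set 3 mean of 6.29 CPM. Cd274, which encodes the checkpoint ligand PD-L1, was separated, at 6.38 to 27.3 CPM against 1.15 to 2.90 CPM, a difference of 2.84 (SE 0.84). Cxcl10, a T cell chemokine, overlapped, at 11.2 to 40.8 CPM against 2.78 to 16.5 CPM.

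**Figure D2:**
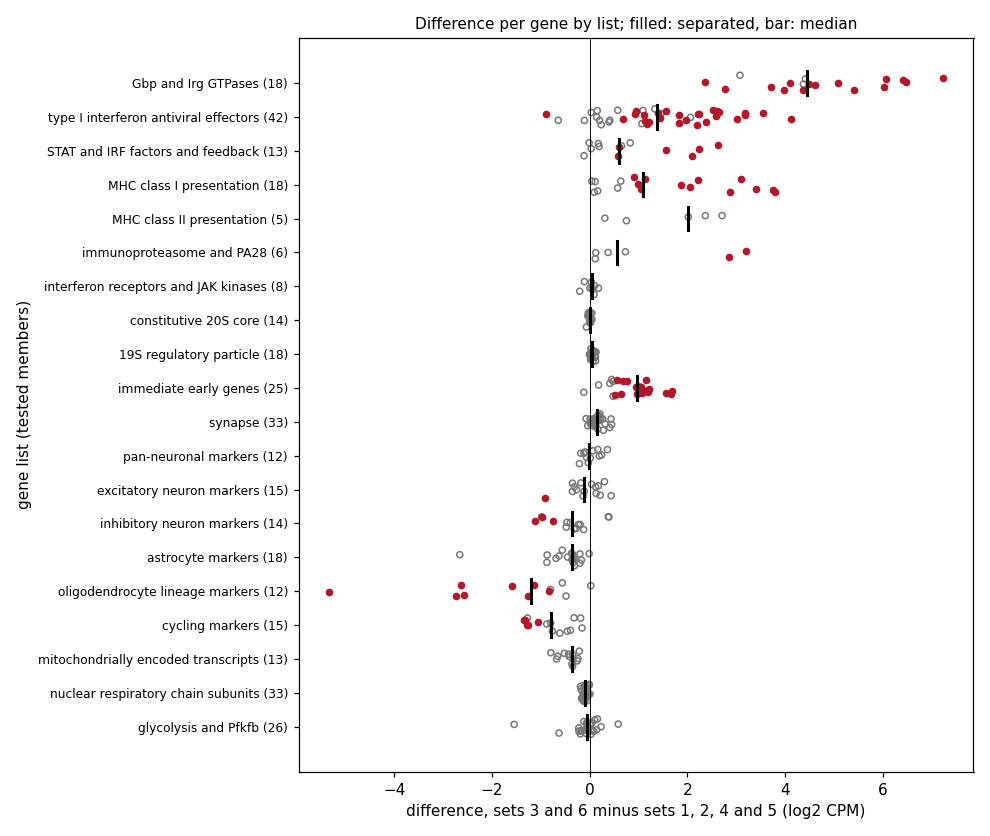
Difference in log2 CPM between sets 3 and 6 and the other sets (horizontal axis) for every tested member of 20 gene lists (vertical axis, number tested in brackets), with filled points for separated genes, open points for the others and black bars for list medians. The medians are 4.45 for the GTPases, 1.37 for antiviral effectors, 0.97 for immediate early genes, 0.00 for the 20S core and -1.20 for the oligodendrocyte lineage.

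Among genes of innate defence outside the interferon core, the complement genes C1ra (difference 2.06, SE 0.58) and Serping1 (1.93, SE 0.74) were separated upward, 2 of 7 tested, and Serping1 differed by 1.21 without set 6. Of 14 NF-kB and acute phase genes 2 were, Cebpd (0.83, SE 0.27) and Relb (0.62, SE 0.14). Casp12, an inflammatory caspase, was the 1 separated gene of 17 on cell death, at 1.19 to 5.25 CPM against 0.11 to 0.72 CPM.

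Activity-regulated immediate early genes were also higher in sets 3 and 6. Of 25 tested, 17 were separated upward, 0 downward, 24 were above 0, and the median difference was 0.97. Npas4, a neuron-specific factor induced by calcium entry, ran from 98.8 to 154 CPM (median 120.3) in sets 3 and 6 and from 24.1 to 88.7 CPM (median 33.0) in the others, a difference of 1.66 (SE 0.42). Fosb ran from 45.4 to 92.5 CPM and from 10.98 to 53.7 CPM, yet the classes were apart within each construct, with a difference of 1.57 (SE 0.44). Egr2 ran from 20.3 to 30.8 CPM and from 4.29 to 17.02 CPM, a difference of 1.68 (SE 0.30). The nuclear receptor Nr4a1 ran from 184 to 292 CPM and from 80.5 to 144 CPM, and Egr1 from 252 to 304 CPM and from 95.9 to 156 CPM. Arc, a synaptic scaffold protein, and Bdnf, a neurotrophin, differed by 1.16 (SE 0.30) and 0.99 (SE 0.28). Jun did not share the pattern, with a difference of -0.12 (SE 0.08).

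The order of the sets was not the same for the 2 programmes. Immediate early genes were lower in set 6 than in set 3 for 23 of 25 genes, with a median gap of -0.11, whereas the GTPases were higher in set 6 for all 18. Set 2 was the lowest for immediate early genes, with a list mean of 5.10 log2 CPM, followed by set 5 at 5.45, set 4 at 5.60 and set 1 at 5.86, against 6.30 in set 6 and 6.45 in set 3. Without set 2 the median difference of the list was 0.67. The 33 tested genes of synaptic proteins had a median difference of 0.16, 31 of them above 0, and none was separated. The NMDA receptor subunit Grin2a differed most among them, by 0.45 (SE 0.20).

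A few neuronal subtype markers were separated. Nrgn, a calmodulin-binding protein of excitatory neurons, ran from 170 to 186 CPM in sets 3 and 6 and from 262 to 444 CPM in the others, a difference of -0.90 (SE 0.12). The 15 excitatory markers together had a median of -0.11, and Nrgn was the only 1 separated. Among 14 inhibitory markers 3 were separated downward, 12 were below 0, and the median was -0.35. The mean of this list was 5.31 and 5.29 log2 CPM in sets 3 and 6 and 5.35 in set 5. Sets 1, 2 and 4 were at 5.93, 5.88 and 5.62. Calb2, which encodes calretinin, ran from 4.24 to 5.94 CPM against 7.61 to 13.7 CPM, a difference of -1.12 (SE 0.10). The neuropeptides Npy and Sst differed by -0.97 (SE 0.21) and -0.75 (SE 0.16), and Sst overlapped across constructs (90.9 to 158 CPM against 115 to 305 CPM). The 12 pan-neuronal markers had a median of -0.0050, with 6 above and 6 below 0.

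**Figure D3:**
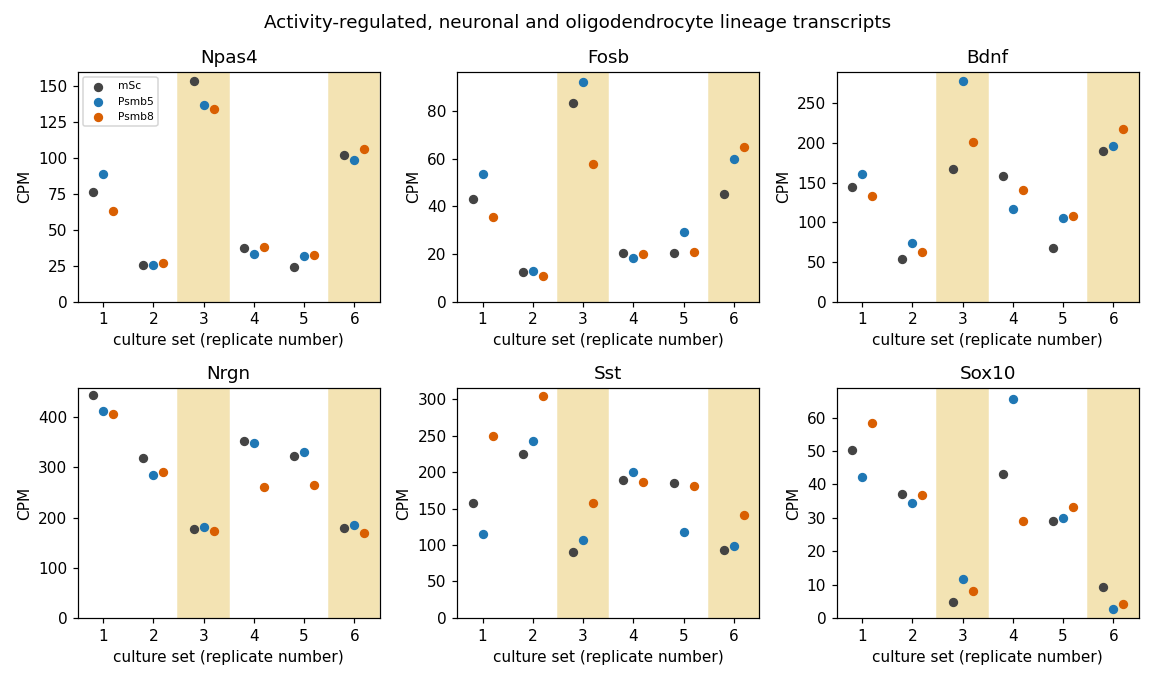
CPM (vertical axes, from 0) of Npas4, Fosb, Bdnf, Nrgn, Sst and Sox10 in the 18 libraries by culture set (horizontal axes), with 1 point per library coloured by construct and sets 3 and 6 shaded. Nrgn lies at 170 to 186 CPM in sets 3 and 6 and at 262 to 444 CPM in the others, and Sox10 at 2.55 to 11.5 CPM and 29.1 to 65.7 CPM.

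Oligodendrocyte lineage transcripts were lower in sets 3 and 6. Of 12 tested markers, 8 were separated downward, 0 upward, and the median difference was -1.20. Sox10, a factor that defines the lineage, ran from 2.55 to 11.5 CPM (median 6.45) in sets 3 and 6 and from 29.1 to 65.7 CPM (median 37.0) in the others, a difference of -2.73 (SE 0.40). Pdgfra, the growth factor receptor of oligodendrocyte precursors, ran from 11.7 to 70.0 CPM and from 120 to 314 CPM, a difference of -2.56 (SE 0.45). Gpr17, which marks committed precursors, lay at 0 to 0.26 CPM against 1 to 26.3 CPM. Cldn11 and Ugt8a, genes of myelin, differed by -2.64 (SE 0.54) and -1.59 (SE 0.36), and Mag, too low to be tested, had 7 counts in the 6 libraries and 198 in the other 12. Not all members showed this. Olig2 overlapped between the classes (difference -0.56, SE 0.15), and Mog differed by 0.03 (SE 0.30). The summed level of the list was 252 to 457 CPM in sets 3 and 6 and 582 to 1166 CPM in the others. In bulk RNA fewer cells of a type and less RNA per cell cannot be told apart.

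Several genes outside all lists with the largest negative differences, gene models without a family name again left aside, are also known from this lineage. Zfp488, an oligodendrocyte zinc finger protein, ran from 0.24 to 0.75 CPM against 1.62 to 6.12 CPM, a difference of -2.88 (SE 0.30). Gal3st1, the sulfotransferase that makes sulfatide for myelin, differed by -2.28 (SE 0.43). The 3 largest negative differences of such separated genes with a mean of at least 1 CPM were those of Tmem255b (-3.42, SE 0.34), Gprc5a (-3.38, SE 0.53) and Zfp488. Irx1, Tll2, Scrg1, Col24a1, Selenov, C1ql1, Gpx3, Dll3, Moxd1, Resp18 and Tac1 differed by -2.61 to -2.19. Tac1, which encodes the peptide substance P, ran from 1.68 to 2.64 CPM against 5.07 to 30.5 CPM, and Gpx3, a secreted glutathione peroxidase, from 0.88 to 1.78 CPM against 3.81 to 9.35 CPM.

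Cycling markers were lower as well. All 15 were below 0, 5 were separated downward, and the median was -0.80. Mki67 ran from 4.01 to 13.8 CPM against 12.5 to 36.1 CPM, a difference of -1.31 (SE 0.30), and Ube2c, Aurkb, Ccnb1 and Mcm5 were the other 4. Set 4 was the highest for this list, with a mean of 3.56 log2 CPM against 2.83 to 3.05 in sets 1, 2 and 5 and 2.46 and 2.13 in sets 3 and 6. Without set 4 the median was -0.66.

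**Figure D4:**
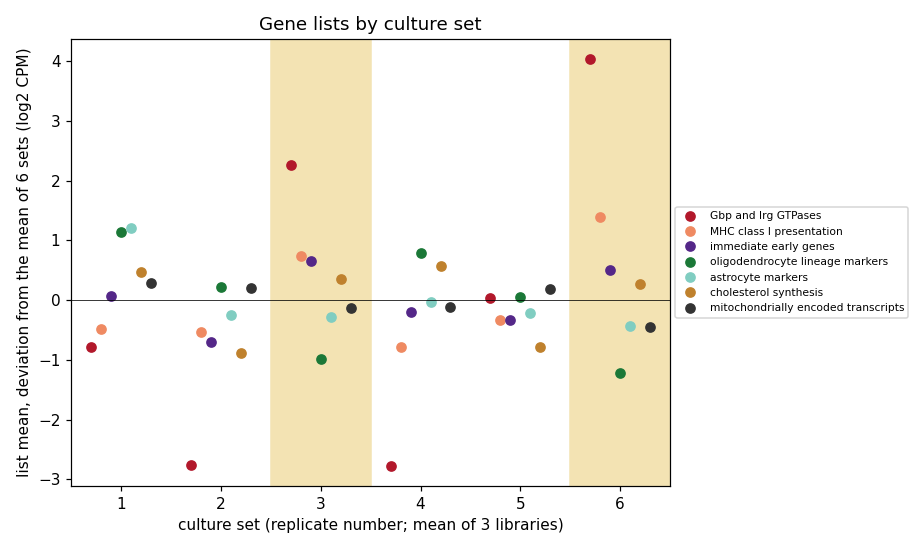
Mean log2 CPM of 7 gene lists in each culture set (horizontal axis, mean of 3 libraries), drawn as the deviation from the mean of the 6 sets (vertical axis), with sets 3 and 6 shaded. The GTPases, MHC class I and immediate early genes are highest and the oligodendrocyte lineage lowest in sets 3 and 6, astrocyte markers are highest in set 1, and cholesterol synthesis is lowest in sets 2 and 5.

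Markers of immune cells were scarce in both classes. Of 21 microglia and macrophage markers 4 had enough counts for testing, and the defining genes Tmem119, Cx3cr1 and P2ry12 had 1, 25 and 30 counts over all 18 libraries. The summed level of the list was 50.5 to 53.8 CPM in sets 3 and 6 and 35.6 to 48.4 CPM in the others. Cd68, a lysosomal protein of macrophages also present in other cells, made up most of it, at 31.3 to 36.5 CPM against 14.7 to 28.6 CPM, and the median of the 4 members was -0.21. No lymphocyte or natural killer marker of 13 could be tested. Cd3d, Cd8a, Nkg7, Gzmb and Prf1 had 0 counts in every library, and the summed level was 0.29 to 0.78 CPM in sets 3 and 6 and 0.17 to 0.79 CPM in the others. The part of such cells in the interferon-stimulated transcripts was not tested.

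Astrocyte markers had a median difference of -0.35, with 18 of 18 below 0 and none separated. Set 1 was the highest. Slc1a2, the main astrocyte glutamate transporter, averaged 2052 CPM in set 1 and 565 to 727 CPM in the other 5 sets. Without set 1 the median was -0.09. Of 17 reactive astrocyte genes, 5 were separated upward, and of these Gbp2, Psmb8, H2-T23 and H2-D1 are also on the interferon-related lists and Serping1 on the complement list. Lcn2, Serpina3n and Vim, which are on no interferon list used here, differed by -0.38, 0.40 and 0.27, and none of them was separated. Vascular markers had 1 of 6 separated (Cspg4, -1.26, SE 0.24, also a gene of oligodendrocyte precursors). The fibroblast list had Foxc1 separated upward (1.20, SE 0.27) and Pdgfra downward.

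No gene of the energy, sterol, stress, ribosomal and lysosome lists was separated, though several lists lay mostly on 1 side of 0. Of 22 cholesterol synthesis genes 21 were above 0. Below 0 were 32 of 33 nuclear respiratory chain genes and 26 of 27 ribosomal protein genes. The 13 mitochondrially encoded transcripts had a median of -0.36 with all 13 below 0 and none separated, and set 4 (list mean 7.77 log2 CPM) was as low as set 3 (7.76) and above set 6 (7.44). The 33 nuclear respiratory chain genes had a median of -0.10, and 26 glycolysis genes a median of -0.05, with none separated in either. Slc16a3, a lactate exporter, differed most among the latter, by -1.54 (SE 0.27). Cholesterol synthesis genes had a median of 0.48 with none separated. The list mean was 6.36 and 6.29 log2 CPM in sets 3 and 6, 6.49 and 6.58 in sets 1 and 4, and 5.13 and 5.24 in sets 2 and 5. Sets 1 and 4 were thus as high as sets 3 and 6. The medians were -0.12 for the pentose phosphate pathway, 0.11 for oxidative stress, 0.15 for the integrated stress and unfolded protein responses, -0.12 for cytosolic ribosomal proteins and 0.06 for lysosome and autophagy genes.

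Outside all lists, and apart from gene models without a family name, of which Gm43302 and 9930111J21Rik2 are given above, the largest positive differences of separated genes with a mean of at least 1 CPM included Trim30d, a relative of Trim30a (2.399, SE 0.57), and the tripartite motif genes Trim12c (1.53, SE 0.35) and Trim12a (1.49, SE 0.42), with reads possibly shared among copies. Atp13a4, a P5-type cation transporter, ran from 94.2 to 124 CPM in sets 3 and 6 and from 8.14 to 100.4 CPM in the others. Acan, which encodes aggrecan of perineuronal nets, ran from 69.3 to 138 CPM against 9.23 to 64.8 CPM, a difference of 1.73 (SE 0.44). The developmental transcription factors Foxf1, Hmx1, Tbx2, Skor1 and Tfap2c differed by 2.38, 1.86, 1.68, 1.68 and 1.61, and Tfap2c by 1.06 without set 1. Irs4, Asb11, Sec16b, Rhcg and Adgrd1 completed the 15, between 1.43 and 1.85. In all, 159 genes separated upward lay outside every list, gene models included.

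Whether the effect of a construct differed between interferon-high and other sets was tested with an interaction term in edgeR's quasi-likelihood fit with the culture set as a block. The choice of sets did not use this comparison, except for Psmb8 itself, whose endogenous level in the mSc libraries goes with the class. An SE printed with a construct difference or an interaction comes from this edgeR fit. It is not the SE over the sets that is given with differences between the classes. For Psmb8 against mSc, 2 of 15671 genes (0.0128%) passed a Benjamini-Hochberg adjusted p of 0.05, both downward, and 982 had an unadjusted p under 0.05. For Psmb5 against mSc the same test called 0 genes (0%), with 602 under an unadjusted 0.05, and DESeq2 also called 0. The 2 called genes were B2m and Psmb8 itself.

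B2m in the mSc, Psmb5 and Psmb8 libraries was at 160, 147 and 112 CPM in set 3 and at 280, 231 and 197 CPM in set 6. In sets 1, 2, 4 and 5 the 3 constructs lay within 44.2 to 49.4, 37.0 to 38.3, 31.8 to 34.6 and 35.7 to 39.2 CPM. The Psmb8 library was thus the lowest of its set in both high sets, whereas in the others it was the highest in sets 1 and 5, the lowest in set 4 and between in set 2. Psmb8 minus mSc was -0.51 (SE 0.06, adjusted p = 0.0015, edgeR) within sets 3 and 6 and 0.02 (SE 0.05, adjusted p = 0.951) within the others. The difference between these was -0.53 (SE 0.08, adjusted p = 0.0365). The same sign was kept without each set in turn, at -0.57 to -0.49, but the adjusted p was 0.0978, 0.365, 0.661, 0.254 and 1 without set 1, 2, 3, 5 or 6 and 0.0072 without set 4. The call was therefore lost without any 1 of sets 1, 2, 3, 5 and 6. For Psmb5 the interaction of B2m was -0.17 (SE 0.08, adjusted p = 0.998).

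**Figure D5:**
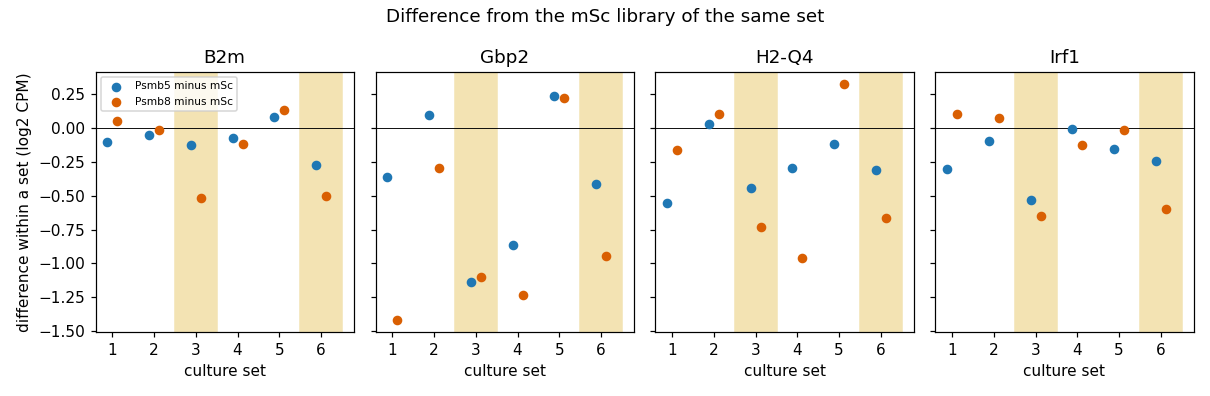
Difference in log2 CPM between the Psmb5 or Psmb8 library and the mSc library of the same culture set (vertical axis) for B2m, Gbp2, H2-Q4 and Irf1 by culture set (horizontal axes), with 1 point per pair of libraries and sets 3 and 6 shaded. B2m in Psmb8 libraries lies at -0.52 and -0.50 in sets 3 and 6 and between -0.12 and 0.13 in the others, and Gbp2 also falls below 0 in sets 1, 2 and 4.

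The interaction for Psmb8 itself was -2.91 (SE 0.40, adjusted p = 0.0122, edgeR). The overexpressed transcript stood at 1038 and 1056 CPM in sets 3 and 6 and at 546 to 1028 CPM in the others. The smaller ratio to mSc goes with the higher endogenous level in the mSc libraries of sets 3 and 6 (12.2 and 19.4 CPM against 0.84 to 2.59 CPM). Since the sets were chosen as interferon-high, this call was bound up with that choice and is not read as a different effect of the construct. Without set 3 or set 6 its adjusted p was 0.05852 or 1.

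Within sets 3 and 6 alone, 6 genes (0.0383%) passed for Psmb8 against mSc in edgeR, Psmb8 upward and 5 downward. Gbp2 differed by -1.03 (SE 0.16, adjusted p = 0.0177), H2-Q4 by -0.70 (SE 0.12, adjusted p = 0.0359) and Irf1 by -0.62 (SE 0.11, adjusted p = 0.0402). The postsynaptic scaffold gene Shank3 differed by -0.39 (SE 0.07, adjusted p = 0.0402), and B2m was the remaining 1. Within the other sets 8 genes (0.051%) passed, and none but Psmb8 was among the 6. That does not show a difference between the classes for these genes. The interaction of Gbp2 was -0.54 (SE 0.29, adjusted p = 0.816), that of H2-Q4 -0.65 (SE 0.19, adjusted p = 0.617) and that of Irf1 -0.63 (SE 0.14, adjusted p = 0.502). Gbp2 was also lower in the Psmb8 than in the mSc library in set 1 (-1.42), set 2 (-0.29) and set 4 (-1.23) and higher in set 5 (0.22).

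For Psmb5 against mSc, 1 gene (0.00638%) passed within sets 3 and 6, Psmb5 itself, and 5 genes (0.0319%) within the others. These were Psmb5, the linker histone gene Hist1h1c (-0.57, SE 0.08), the glycolytic regulator Pfkfb3 (0.37, SE 0.06), the matrix gene Tnc (0.65, SE 0.11) and the intermediate filament gene Nes (0.42, SE 0.07). Their interactions did not pass, with an adjusted p of 0.998 for each of the 4.

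Across the GTPase list, all 18 members were below 0 for Psmb8 against mSc within sets 3 and 6, with a median of -0.77, and all 18 for Psmb5 against mSc, with a median of -0.50. Both comparisons use the same 2 mSc libraries, which were the highest of their sets. Within the other sets the medians were -0.09 and -0.03, with 10 of 18 below 0 in each. Some members were at the floor there, with Gbp4 and Tgtp2 at 0 CPM in every library of sets 2 and 4. Their Psmb8 minus mSc values were -2.04 and -2.16 in set 1 but 0.49 and 1.20 in set 5. The medians near 0 therefore do not show that a construct difference was absent from the other sets. Over all tested genes the 4 medians ran from -0.0013 to 0.0024. Gbp2 alone passed for Psmb8 within sets 3 and 6, and none passed in the other 3 comparisons or in either interaction. The MHC class I list had a median of -0.46 for Psmb8 within sets 3 and 6 and -0.01 within the others, with B2m and H2-Q4 called in the former. Members below 0 were 16 and 9 of 18. For Psmb5, against the same mSc libraries, the medians were -0.21 and -0.07, with 15 and 12 of 18 below 0 and 0 called. The interaction was below 0 for all 18 members with Psmb8 and also with Psmb5. The 13 genes of the 20S core apart from Psmb5 had medians of 0.10 and 0.13 for Psmb8, and the 25 immediate early genes 0.04 and -0.02, with none called.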

How the data were processed

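RNA from 18 cultures was sequenced as poly A selected libraries. The authors deposited raw counts per gene (43629 Ensembl IDs, 42462 matched to a symbol). The submitters' processing notes name STAR 2.4, DESeq2, GRCm39 and mm10 with no role. Counter, strand use and the handling of reads with several matches were not given in the sources used here, so reads of near-identical or overlapping genes may be shared.

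The sets, their members and all gene lists were chosen with earlier results of these data known. Counts were filtered by expression (15671 genes kept), scaled by TMM and turned into log2 CPM with 0.5 counts added, in edgeR 4.0.16 under R 4.3.3. The interaction of construct and class was fitted over all 18 libraries with edgeR's quasi-likelihood test, the culture set as a block and Benjamini-Hochberg adjustment over all genes. On simulated counts it recovered most of the changes made, more of the larger than of the smaller, and unchanged genes made up a somewhat larger share of its calls than the threshold sets. The changes were made only in genes with counts well above the floor, so recovery for low-count genes was not tested. The block comes from a check of the replicate numbers, since the labels do not say what they mark. Same-numbered libraries deviated together from their group means in all 18 pairs (r = 0.42 to 0.71, mean 0.585). The other 90 pairs had a mean r of -0.12 but ran from -0.53 to 0.63. Some differently numbered libraries were thus as alike as same-numbered ones. The biological coefficient of variation was 6.01% with the block and 13.4% with construct and class alone. Where nothing says that libraries came from separate animals, p-values measure only the spread between these samples.

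Named genes were the 3 markers, up to 5 separated genes of each list with the largest difference (or, with none separated, the 1 with the largest difference in size), the 15 separated genes with the largest differences in each direction outside the lists, with a mean of at least 1 CPM and a gene symbol other than a Gm, Rik or similar gene model name, and genes called in an interaction. Other list members, such as Ifngr1, Ifit2 or Calr, are named to show members that did not separate, and were chosen after their values were seen. Alternatives were DESeq2 1.42.0, limma-voom (limma 3.58.1), DESeq2's size factors, no filter, a mean of at least 5 CPM, another added count, each construct alone and each replicate number left out. Gene positions are from GENCODE M21 and promoters from RefSeq, both on GRCm38, used for the genes and not for the reads. Some genes are not reported here.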

Additional observations from a re-analysis of the deposited data

Results flagged for a closer look

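Between classes of sets, 2 genes were called for Psmb8 against mSc in the interaction test of edgeR. The interaction was -0.526 for B2m (adjusted p = 0.0365) and -2.91 for Psmb8 (adjusted p = 0.0122), both with values given above. The call of Psmb8 goes with its endogenous level in the mSc libraries and was bound up with the choice of sets.

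In 117 checks of list means over the 6 libraries of a construct, 7 had an end value farther from its neighbour than the 95% critical share of the range (0.625 for 6 samples), and chance gives about 1 in 20. For astrocyte markers the set 1 library was high in all 3 constructs, with a gap of 0.742 of the range in mSc (7.92 log2 CPM, others 6.06 to 6.54), 0.712 in Psmb5 (7.70, others 6.25 to 6.67) and 0.813 in Psmb8 (7.74, others 6.12 to 6.42). The mSc library of set 1 was also low for the 4 tested microglia and macrophage markers (gap 0.694, 1.95 against 2.42 to 2.63 log2 CPM) and high for vascular markers (gap 0.672, 2.06 against 1.04 to 1.38). The Psmb8 library of set 4 was high for the 20S core (gap 0.655, 6.25 against 5.98 to 6.08) and for oxidative stress genes (gap 0.640, 7.00 against 6.24 to 6.51). No interferon-related list and no library of sets 3 or 6 was among them. Sets 3 and 6 are both high in each construct and can mask each other in this check, so nothing is read from that.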

How the results depend on the processing

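The interaction test of Psmb8 against mSc called 2 genes with the set as a block and 0 without the replicate block, where the adjusted p of B2m was 0.9999. DESeq2 called 5 of 3822 genes given an adjusted p, limma-voom 2, DESeq2's size factors 2 and no filter 86, and leaving out a set gave 0 to 4. For Psmb5 no filter gave 23 calls, and the other settings run 0. The cause of the counts without a filter was not tested.

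Separated genes numbered 160 upward and 253 downward at a mean of 5 CPM, where fewer genes were tested, 122 and 169 at a minimum of 1 on the log2 scale, and 408 and 853 in mSc libraries alone. In Psmb5 libraries alone 721 were downward. These need fewer libraries to separate. Leaving out a set gave 223 to 387 upward and 446 to 692 downward, with 387 and 692 without set 4 and 669 downward without set 3.

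The median of the antiviral list was 0.92 at 5 CPM, 0.97 in Psmb5 and 0.93 in Psmb8 libraries alone, and 0.91 to 1.67 without a set, the lowest without set 6. MHC class I medians ran from 0.80 without set 6 to 1.38 without set 3, those of the GTPases from 3.602 to 5.51 and those of immediate early genes from 0.67 to 1.08. The microglia median changed sign at 5 CPM (0.23), in mSc (0.042) and in Psmb8 libraries alone (0.073), and the excitatory median in Psmb5 libraries alone (0.026). Depth limits the interferon ligands and several antiviral genes, which had too few counts to be tested.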
